A study of Mus musculus with 4 samples.

Results

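A set of 10 genes of the Notch pathway was described across cells of the distal jejunum: the receptors Notch1, Notch2, Notch3 and Notch4, the ligands Dll1, Dll4, Jag1 and Jag2, and the targets Hes1 and Hey1. They were chosen by symbol from the list of 32286 measured features, and all 10 members were found. The samples were single-cell suspensions of the distal jejunum of 4 adult male mice, 18.5 h after ischemia and reperfusion (I/R) of the small intestine through the superior mesenteric artery. The 2 Control mice were Foxc1fl/fl;Foxc2fl/fl, and the 2 EC-Foxc-DKO mice were Cdh5-CreERT2;Foxc1fl/fl;Foxc2fl/fl, so that tamoxifen deletes the transcription factor genes Foxc1 and Foxc2 in endothelial cells. All mice received tamoxifen, so Control mice carried the floxed alleles and the drug but no Cre. The Cdh5 promoter drives Cre in blood and lymphatic endothelial cells.

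Notch is a receptor that signals between touching cells. A ligand of the Delta-like or Jagged type on one cell pulls on the receptor of its neighbor, the receptor is cleaved, and its intracellular domain enters the nucleus, where it joins RBPJ to switch on targets such as the repressors Hes1 and Hey1. In the intestinal crypt this signaling keeps stem and progenitor cells and favors absorptive over secretory fate, and in vessels it directs arterial identity, sprouting and the coat of mural cells.

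Promoter sequences were taken from RefSeq (build GRCm38.p6) as the 250 bases before each start, and 8 of the 10 members had an entry there; Hes1 and Hey1 did not. Examples are given of an endothelium-led receptor (Notch1), a mural receptor (Notch3), a BEC receptor (Notch4) and an endothelial ligand (Dll4), the patterns described below. The windows of these genes are shown. They lie at chr2:26503823-26504072 (minus strand), chr17:32166891-32167140 (minus strand), chr17:34564045-34564294 (plus strand) and chr2:119325534-119325783 (plus strand). Capitals mark the GC box GGGCGG on either strand.
Notch1: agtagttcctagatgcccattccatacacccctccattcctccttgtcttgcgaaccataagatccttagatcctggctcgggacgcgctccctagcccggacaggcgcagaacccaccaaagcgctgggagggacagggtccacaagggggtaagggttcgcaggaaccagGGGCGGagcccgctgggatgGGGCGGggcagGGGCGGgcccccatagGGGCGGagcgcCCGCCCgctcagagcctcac
Notch3: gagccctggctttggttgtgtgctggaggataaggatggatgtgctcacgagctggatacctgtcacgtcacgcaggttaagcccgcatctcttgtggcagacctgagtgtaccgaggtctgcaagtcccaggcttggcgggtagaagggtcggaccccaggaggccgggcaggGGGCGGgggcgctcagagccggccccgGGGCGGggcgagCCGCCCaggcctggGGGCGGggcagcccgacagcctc
Notch4: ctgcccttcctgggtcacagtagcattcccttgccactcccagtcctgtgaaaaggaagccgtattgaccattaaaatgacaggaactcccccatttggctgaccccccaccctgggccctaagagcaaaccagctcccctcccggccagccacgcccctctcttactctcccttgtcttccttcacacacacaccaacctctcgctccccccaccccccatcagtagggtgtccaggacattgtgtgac
Dll4: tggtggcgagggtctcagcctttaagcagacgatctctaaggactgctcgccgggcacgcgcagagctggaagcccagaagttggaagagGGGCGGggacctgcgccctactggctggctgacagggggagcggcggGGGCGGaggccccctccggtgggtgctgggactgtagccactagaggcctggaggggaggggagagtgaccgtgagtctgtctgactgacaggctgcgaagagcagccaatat

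The GC box was found in 5 of the 8 members with a window (Notch1, Notch2, Notch3, Dll4 and Jag2) and in 32.7% of all 32851 windows of this length. The Notch4 window held none. No member window held TGGGAA, the letters of an RBPJ site (in 21.6% of all windows), TGTTTA of a forkhead site (12.0%), CCGGAA of an ETS site (12.0%) or CACGTG of an E-box (6.02%). Each was searched on both strands, and a match or its absence describes these 250 bases and nothing of the factor.

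The 4 libraries held between 15557181 and 72046346 unique molecular identifiers (UMIs), and 5615 of 22679 barcodes (24.8%) were kept at a mitochondrial share of at most 10%, with 348 to 2742 cells per mouse. Control replicate 2 stood apart, with a median mitochondrial share of 54.0% before filtering against 14.98% to 25.8% in the other mice. Cells were clustered without the Notch pathway genes, and 20 cell types were named from the study's markers, so that each name stands for a cluster like that type, and any gap to the study's own cell types can come from this rebuilt naming. In blood endothelial cells (BECs), the targeted gene Foxc1 was counted at 1, 5, 1 and 0 UMIs over the 4 mice (Control first), Foxc2 was at 0 throughout, and Cre was at 0, 0, 3 and 2. These counts are too few to check the deletion beyond the presence of Cre. Between libraries, 51 barcodes were shared, of which 2 were kept in both.

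Endothelial cells carried a larger part of the members' UMIs than of all UMIs for every member but Notch2. BECs and lymphatic endothelial cells (LECs) together were 189 cells (3.37%) with 1.17% of UMIs. The cluster named myocytes and pericytes, called mural cells here, was 46 cells (0.819%) with 0.374%. Its leading genes included the smooth muscle genes Actg2 and Myh11. Pericytes and smooth muscle were not separated in it, and muscle of the gut wall may be among these cells. The named epithelial types were 2115 cells (37.7%) with 70.1% of UMIs. The endothelium held 83.2% of the 137 Hey1 UMIs, 69.4% of the 173 Notch4 UMIs, 49.4% of the 243 Jag2 UMIs and 31.1% of the 1137 Notch1 UMIs. Mural cells held 93.1% of the 202 Notch3 UMIs and 19.8% of the 587 Jag1 UMIs. The named epithelial types held 81.3% of the 1083 Dll1 UMIs, 63.8% of the 426 Dll4 UMIs and 61.9% of the 2257 Hes1 UMIs. These shares are low estimates, since 2 unnamed clusters of 255 and 155 cells, which showed only epithelial broad markers and are counted as other cells, held 140 and 9 further Dll1 UMIs and 234 and 4 Hes1 UMIs. The 70.1% of all UMIs leaves out the same clusters and is low as well. The Dll4 and Hes1 shares lay below that 70.1%. Per UMI, Dll1 was at 30.5 CPM in the endothelium and 14.96 CPM in the named epithelium, over all mice. The endothelial level rested mostly on 1 mouse. In BECs Dll1 was at 56.4 CPM in EC-Foxc-DKO replicate 1, against 14.6 and 13.9 CPM in the Control mice and 0 in EC-Foxc-DKO replicate 2. Notch2 had 744 UMIs, and only 0.941% of them were endothelial.

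**Figure D1:**
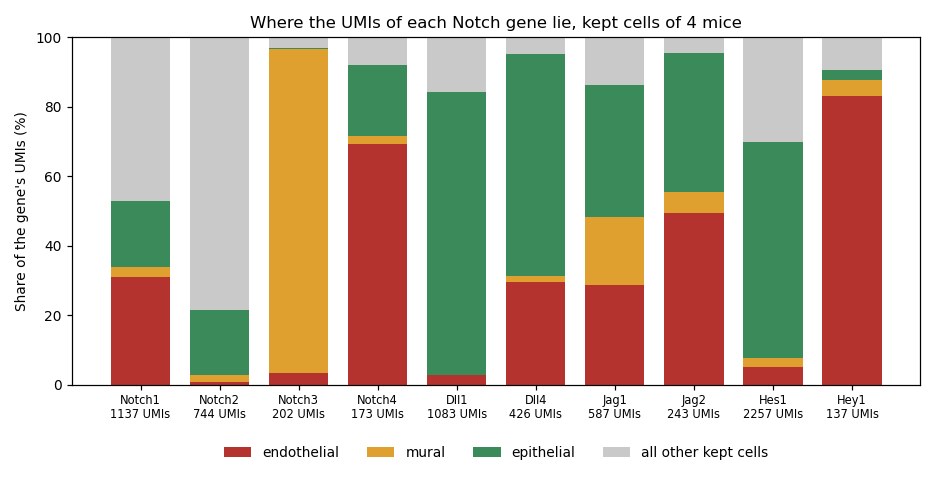
Share of each gene's UMIs (percent, y axis) in endothelial, mural, epithelial and other cells, summed over 4 mice, for the 10 members; bars are stacked to the whole. Hey1 was 83.2% endothelial and Notch3 93.1% mural, while the 81.3% of Dll1 in named epithelial types stands beside their 70.1% of all UMIs.

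Levels are given in CPM, a gene's part of all UMIs in the summed cells of 1 cell type and 1 mouse, scaled to a total of 1000000, in the order Control 1, Control 2, EC-Foxc-DKO 1, EC-Foxc-DKO 2. Free RNA in droplets was gauged in 1373 follicular B cells, whose median depth was 3087 UMIs against 4007 in BECs and 4555.5 in mural cells. In these B cells a UMI was found for Notch4 and Dll1 in 0.437% of cells, for Dll4 and Jag1 in 0.146%, and for Notch3, Jag2 and Hey1 in 0 of 1373, which allows up to 0.218%. This reference rests mostly on EC-Foxc-DKO replicate 1, which gave 1200 of the cells, against 123, 17 and 33 in Control 1, Control 2 and EC-Foxc-DKO 2. Notch1 and Hes1 were found in 3.42% and 7.57% of the same cells, at 10.2 and 28.3 CPM, so B cells give no clean background for them. The lowest shares were 0.787% for Notch1 in goblet and Paneth cells and, for Hes1, 0 of 56 cells of the neutrophil-led Macrophage 1 cluster, which allows up to 5.36%. The limits and intervals cover counting error only.

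Notch1, the receptor that governs both crypt stem cells and sprouting vessels, was highest in LECs and BECs. In BECs it reached 446, 231, 353 and 301 CPM, and 67.8% of the 171 cells had a UMI (95% exact interval 60.3% to 74.8%), or 30.9% after thinning to 1000 UMIs per cell. In LECs it was 686 and 566 CPM in the Control mice with at least 5 cells, and 603 CPM in EC-Foxc-DKO replicate 1 from only 3 cells, while the other EC-Foxc-DKO mouse gave no LEC. LEC values lay above all BEC values, while the BEC range overlapped the glia-led cluster that the marker list names Fibroblasts (187, 245, 199.5 and 232 CPM). Crypt cells had 10.5, 44.5, 18.7 and 16.2 CPM, a range that overlapped the 17.7, 16.6, 9.17 and 20.8 CPM of follicular B cells.

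Notch4, the receptor largely restricted to vessels, was at 87.8, 139, 128 and 206 CPM in BECs, and its mean of 140.1 ± 49.2 CPM (SD, n = 4) did not overlap LECs, the next type. A UMI was found in 41.5% of BECs (95% exact interval 34.0% to 49.3%). In mural cells it was 16.4, 18.4 and 10.6 CPM, and in crypt cells 0.62, 0, 1.78 and 1.73 CPM. Follicular B cells, the reference for free RNA, had 1.25 CPM over all mice, which lies within the range of the crypt values.

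Notch3, the receptor of vascular smooth muscle and pericytes, was at 1051.6, 552 and 465 CPM in the mural cells of the 3 mice with at least 5 such cells, and at 646 CPM in EC-Foxc-DKO replicate 2, which gave only 2 such cells. Its UMIs were found in 80.4% of the 46 mural cells (95% exact interval 66.1% to 90.6%), and 50.9% after thinning. In BECs it was 0, 0, 7.36 and 34.4 CPM, from 7 UMIs in 2 cells. The summed level of the mural marker list in the same BECs was 7.32, 157, 216 and 636 CPM, highest in the mouse with the highest Notch3, and its part in the Notch3 value was not tested. LECs held 0 Notch3 UMIs in 18 cells, which allows up to 16.7%. Crypt cells held 0 in 182 (up to 1.65%) and bottom enterocytes 0 in 618 (up to 0.485%). Over the group floor of 3 counts the mural level was at least 1903-fold higher than in crypt cells, 4114-fold higher than in bottom enterocytes and 960.1-fold higher than in follicular B cells.

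Notch2, a receptor needed for marginal zone B cells and several myeloid cells, was mostly outside the 3 tissue classes. Follicular B cells had 63.1, 66.4, 59.5 and 62.4 CPM and the Macrophage 2 cluster 36.6, 59.7, 50.1 and 57.2 CPM. The B cells of Control 2 and EC-Foxc-DKO 2 numbered only 17 and 33, so the closeness of these values does not measure the spread among mice. Mural cells had 49.3, 18.4 and 52.9 CPM and BECs 0, 9.25, 4.91 and 0. The highest mean, 222 ± 282 CPM, belonged to the cluster named Macrophage 1, led by neutrophil genes, and its SD exceeded the mean. No UMI was found in 77 enteroendocrine cells of type 1, which allows up to 3.90%.

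**Figure D2:**
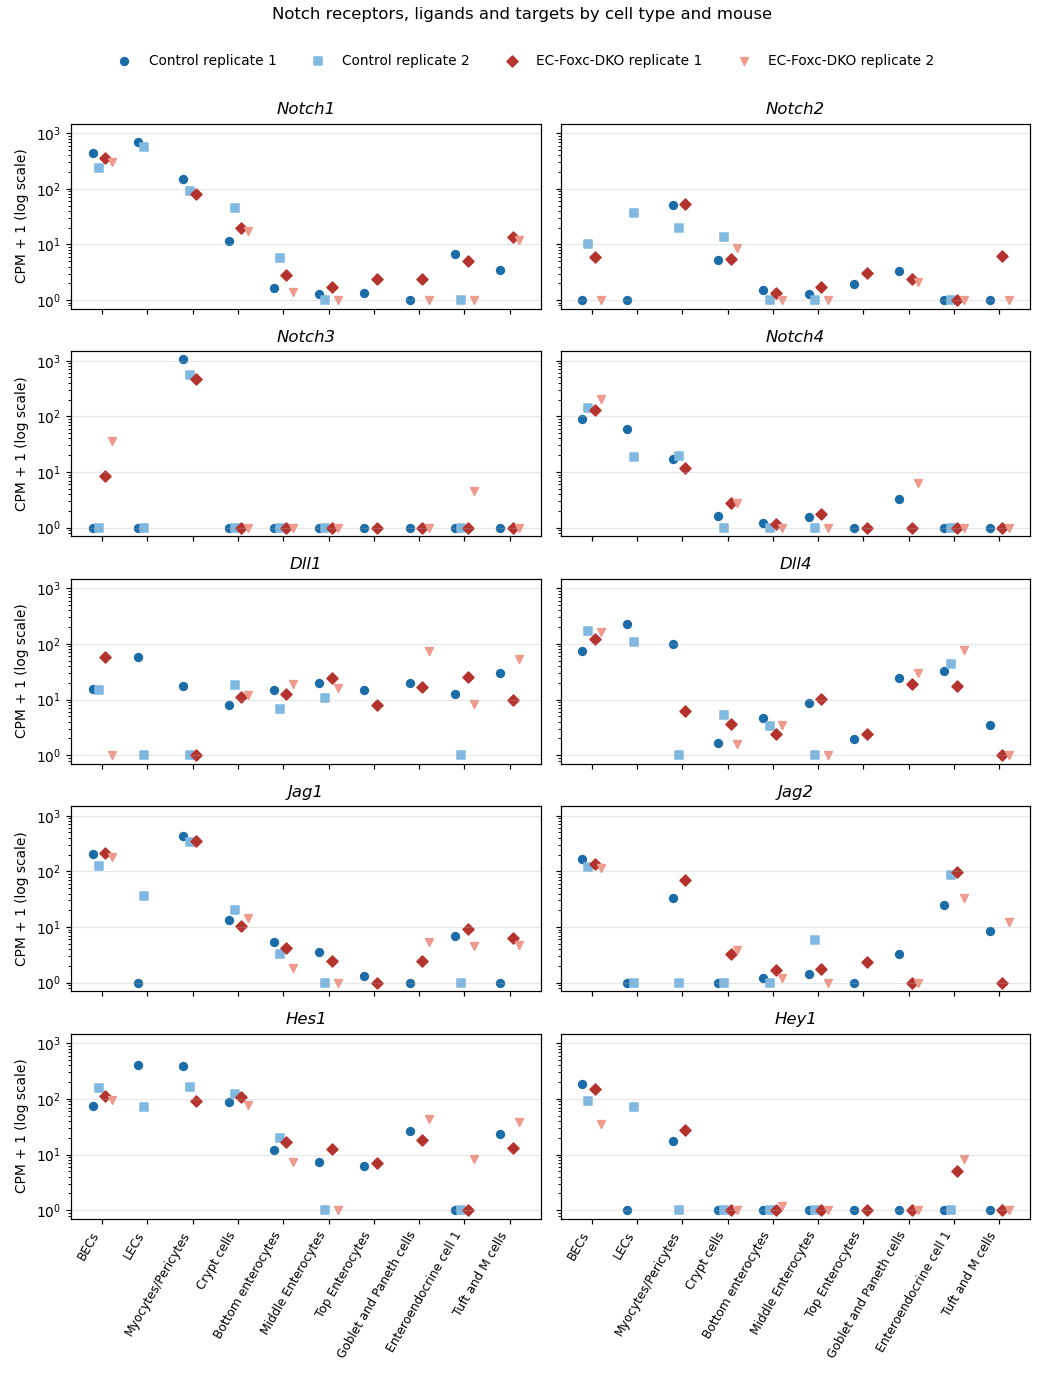
Level of each member (CPM + 1, log axis) in 10 cell types of vessels, muscle and epithelium, 1 point per mouse with at least 5 cells of the type, Control and EC-Foxc-DKO in separate colors. Notch3 in mural cells (465 to 1051.6 CPM) and Notch4 in BECs (87.8 to 206 CPM) do not overlap the other types shown.

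Jag1, the ligand that mural cells and endothelium both use, was highest in mural cells, with 427, 331 and 344 CPM and a mean of 367 ± 52.2 CPM (SD, n = 3). BECs came next with 205, 125, 216 and 180.5 CPM, and neither type overlapped the other or any lower type. A UMI was found in 69.6% of mural cells (95% exact interval 54.2% to 82.3%) and in 39.8% of BECs. Crypt cells had 12.4, 19.1, 9.35 and 13.3 CPM, at a mean of 13.5 ± 4.06 (SD, n = 4).

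Dll4, the Delta-like ligand of sprouting and arterial endothelium, was at 73.2, 171, 120.2 and 163 CPM in BECs and at 229 and 106 CPM in LECs of the Control mice, which overlap. Its UMIs were found in 35.7% of BECs (95% exact interval 28.5% to 43.3%). Among the epithelial types, enteroendocrine cells of type 1 had 32.2, 42.5, 16.2 and 75.4 CPM and goblet and Paneth cells 23.1, 18.3 and 29.1 CPM in the 3 mice with at least 5 cells. Crypt cells were at 0.62, 4.24, 2.67 and 0.578 CPM. Although the epithelium held most Dll4 UMIs, its level in CPM was highest in the endothelium.

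Jag2, the second Jagged ligand, was at 168, 120.3, 137 and 112 CPM in BECs, where 37.4% of cells had a UMI (95% exact interval 30.2% to 45.1%), and BECs did not overlap the next type. Enteroendocrine cells of type 1 followed with 23.4, 85.0, 97.0 and 32.3 CPM. Dll1, the ligand of secretory precursors, was at 18.5, 15.5 and 72.3 CPM in goblet and Paneth cells and at 18.7, 9.63, 23.4 and 15.4 CPM in middle enterocytes. Its ranges overlapped across goblet and Paneth, tuft and M, LEC, BEC and enterocyte clusters, so no order of the leading types can be given. A Dll1 UMI was found in 23.6% of goblet and Paneth cells (95% exact interval 16.5% to 32.0%), whose median depth was 12590 UMIs, and in 3.18% after thinning.

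Hey1, a Notch target in arterial endothelium that encodes a transcriptional repressor, was at 183, 92.5, 149.7 and 34.4 CPM in BECs. A Hey1 UMI was found in 33.3% of BECs (95% exact interval 26.3% to 40.9%). The lowest Hey1 level came from 24 cells of EC-Foxc-DKO replicate 2. Crypt cells held 0 Hey1 UMIs in 182 cells (up to 1.65%), and BECs were at least 398-fold higher over the group floor of 3 counts. Hes1, the target that represses secretory fate in the crypt, was at 86.8, 123, 107 and 76.0 CPM in crypt cells. It was at 73.2, 157, 110.4 and 94.5 CPM in BECs and at 394, 166 and 89.9 CPM in mural cells, so all 3 ranges overlapped. A Hes1 UMI was found in 87.9% of crypt cells, 47.8% of mural cells and 32.7% of BECs, and after thinning in 8.08%, 19.0% and 11.4%. Follicular B cells, in which Hes1 was also found, give no clean background for these shares. The order of the unthinned shares was thus not that of the thinned ones. Bottom enterocytes had 10.99, 18.7, 16.1 and 6.28 CPM.

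The differences between cell types were tested with edgeR's quasi-likelihood test on UMIs summed per mouse and type, with the mouse as a covariate and p-values adjusted by Benjamini-Hochberg over every gene tested. The p-values take in only the spread that remains once each mouse's own level is fitted. EdgeR estimates this spread with help from all genes, and clusters were drawn on the same cells. Between mural cells and BECs, 8 members passed the filter on low counts, and 7 of them passed an adjusted p of 0.05, 2 higher and 5 lower in mural cells, where 30.9% of all 3325 genes tested were called. Notch2 and Dll1 did not pass the filter. A gene can reach the filter through the type where it is high, so these counts describe the members that passed and are not read as support.

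Notch3 had 182 UMIs in the mural cells of the 3 mice fitted and 3 in their BECs, a ratio of 152 in CPM (95% counting interval 51.0 to 742), and no fitted difference is given for it because the BEC count was so low. Jag1 was higher in mural cells in 3 of 3 mice, by 1.05 ± 0.31 on the log2 scale (SE, edgeR adjusted p = 0.0207). The Jag1 call was lost with DESeq2 (adjusted p = 0.174), with no filter on low counts (0.169), at a mitochondrial limit of 20% (0.279), and in edgeR without Control replicate 1 (0.0653) or without Control replicate 2 (0.172). The differences of the members lower in mural cells were -1.71 ± 0.36 for Notch1 (edgeR adjusted p = 0.00237), -3.05 ± 0.53 for Notch4 (0.000648) and -2.81 ± 0.51 for Hey1 (0.000884), with only 4 Notch4 and 6 Hey1 UMIs in mural cells. Jag2 differed by -1.58 ± 0.50 (edgeR adjusted p = 0.0288) and Dll4 by -2.21 ± 0.74 (0.0379), Dll4 in 2 of 3 mice. Mural cells held only 15 Jag2 and 7 Dll4 UMIs, against 105 and 96 in BECs, so both genes reached the filter through BECs. Of the 15 Jag2 UMIs, 13 came from 2 cells of EC-Foxc-DKO replicate 1. Both calls were lost under DESeq2 (adjusted p = 0.0666 and 0.0549) and in edgeR without Control replicate 2 (0.0891 and 0.181). Hes1 differed by 0.70 ± 0.47 (edgeR adjusted p = 0.306) and did not pass. In the mural cells the endothelial marker list summed to 1068, 239 and 730 CPM, and its part in their Notch1 and Dll4 levels was not tested.

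Between crypt cells and BECs, 6 of the 7 members tested were lower in crypt cells and passed, where 66.9% of all 6307 genes were called. Over the 4 mice, crypt cells held 14 Notch4, 12 Dll4, 20 Jag2 and 0 Hey1 UMIs, against 118, 115, 118 and 110 in the much shallower BEC sums. Notch1 and Jag1 had 164 and 119 UMIs in crypt cells, against 290 and 164 in BECs. All 6 of these genes reached the filter through BECs, and their calls were fixed in part by it. Notch4 differed by -6.60 ± 0.38 (edgeR adjusted p = 9.39e-11), Dll4 by -6.31 ± 0.44 (1.12e-09), Jag2 by -6.01 ± 0.45 (2.22e-09), Notch1 by -3.98 ± 0.34 (1.22e-08) and Jag1 by -3.77 ± 0.29 (3.46e-09), each lower in 4 of 4 mice. Jag2 was at 0 in both Control crypt sums, and the counting ratio of BECs to crypt cells was 64.1 for it (95% interval 39.7 to 109), 91.6 for Notch4 (52.5 to 173) and 104 for Dll4 (57.4 to 207). Hey1, at 0 in crypt cells, is given by its bound alone. Hes1 was the exception, at 0.01 ± 0.23 (edgeR adjusted p = 0.974). Notch2, Notch3 and Dll1 did not pass the filter.

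Between crypt and mural cells 3 of the 4 members tested were lower in crypt cells and passed, where 57.7% of all 5516 genes were called. Jag1 differed by -4.78 ± 0.37 (edgeR adjusted p = 3.59e-36) and Notch1 by -2.16 ± 0.48 (2.75e-05), each lower in 3 of 3 mice. Crypt cells held 50 Jag1 and 80 Notch1 UMIs, against 109 and 29 in the much shallower mural sums. Both genes thus reached the filter through mural cells, and their calls were fixed in part by it. In this fit edgeR in effect gave genes of similar level a common spread. These small p-values therefore do not measure how closely the 3 mice agreed for a gene. Notch3 is given by its bound above. Hes1 did not pass at -0.69 ± 0.35 (edgeR adjusted p = 0.0747) and passed without EC-Foxc-DKO replicate 1 (-1.29, edgeR adjusted p = 0.00722).

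**Figure D3:**
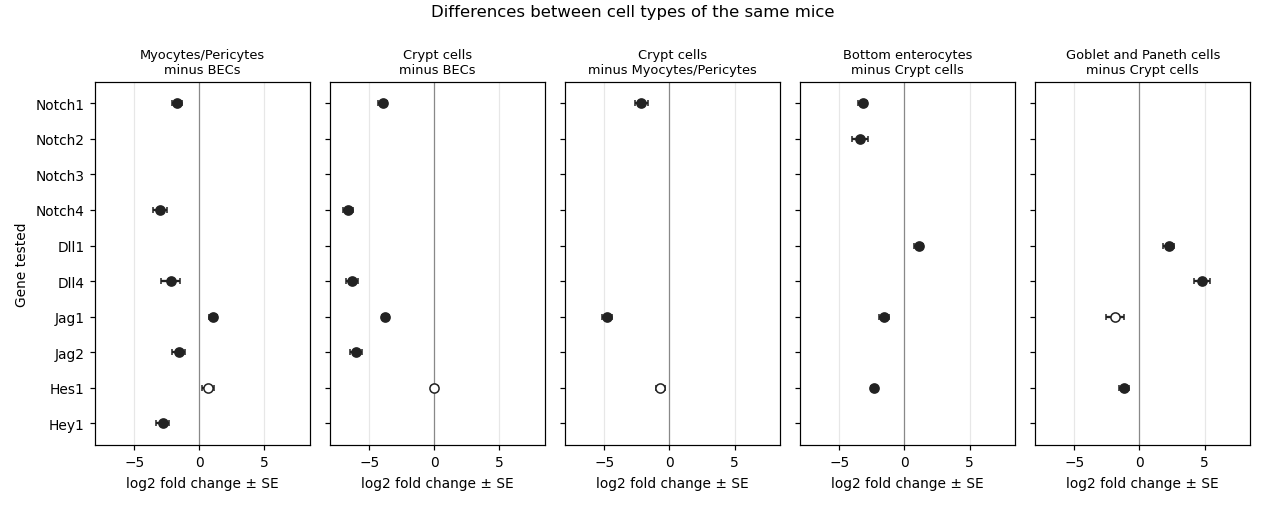
Log2 difference of the members between pairs of cell types with its SE, from edgeR; filled points passed an adjusted p of 0.05 and open points did not. Members with 3 UMIs or fewer in either type are left out; Notch4 in crypt cells against BECs lies farthest to the left at -6.60.

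Within the epithelium, bottom enterocytes were compared with crypt cells, and all 5 members tested passed, 1 higher and 4 lower, where 67.7% of all 9455 genes were called. Hes1 differed by -2.37 ± 0.17 (edgeR adjusted p = 6.42e-06), Notch1 by -3.22 ± 0.34 (4.06e-05), Notch2 by -3.41 ± 0.60 (0.000885) and Jag1 by -1.56 ± 0.40 (0.00731). Bottom enterocytes held only 7 Notch2 and 22 Notch1 UMIs, against 62 and 164 in the shallower crypt sums. Notch2 and Notch1 thus reached the filter through crypt cells, and their calls were fixed in part by it. The ratio of crypt cells to bottom enterocytes was 19.1 for Notch2 (counting interval 8.76 to 49.6). Dll1 rose by 1.09 ± 0.35 in 3 of 4 mice (edgeR adjusted p = 0.0201), a call lost under DESeq2 (adjusted p = 0.101) and in edgeR without Control replicate 1 (0.0758), EC-Foxc-DKO replicate 1 (0.0503) or EC-Foxc-DKO replicate 2 (0.0976).

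Goblet and Paneth cells were compared with crypt cells in 3 mice, and 4 of 5 members tested passed, where 31.5% of all 8183 genes were called. Both Delta-like ligands were higher in goblet and Paneth cells, Dll4 by 4.80 ± 0.60 (edgeR adjusted p = 0.000886) and Dll1 by 2.24 ± 0.45 (0.00776). Dll4 had 50 UMIs in goblet and Paneth cells and only 10 in the much deeper crypt sums of the same mice. Dll4 thus reached the filter through goblet and Paneth cells, and its call was fixed in part by that filter. Its ratio was 21.9 (95% counting interval 10.97 to 48.4). Notch1 had 1 UMI in these goblet and Paneth cells and 143 in the crypt cells of the same mice, a ratio of 32.7 (95% counting interval 5.77 to 1299) with no fitted difference given. Hes1 differed by -1.19 ± 0.37 (edgeR adjusted p = 0.0382), a call lost under DESeq2 (0.0587), with likely doublets removed (0.0563), and in edgeR without Control replicate 1 (0.254) or EC-Foxc-DKO replicate 1 (0.23). Jag1 did not pass at -1.89 ± 0.70 (edgeR adjusted p = 0.0663), but did with no filter on low counts (0.0375), without the mouse covariate (0.0445) and at a mitochondrial limit of 20% (0.0123).

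EC-Foxc-DKO and Control mice were compared next, to ask whether the members moved with loss of Foxc1 and Foxc2 in the endothelium. In BECs none of the 7 members tested passed, and none of these 7 had Control and EC-Foxc-DKO values that did not overlap. Notch3, below the filter, was counted at 0, 0, 3 and 4 UMIs over the 4 mice, and these groups do not overlap. By edgeR 0 of 3467 genes (0%) passed, 95 had an unadjusted p under 0.05, and DESeq2 called 2. Of the 3467 genes tested, 29.5% had groups that did not overlap. No such share was computed for genes below the filter, such as Notch3. The log2 differences of the 7 members tested were 0.01 ± 0.38 for Notch1, 0.47 ± 0.42 for Notch4, 0.12 ± 0.45 for Dll4, 0.34 ± 0.36 for Jag1, -0.14 ± 0.36 for Jag2, -0.18 ± 0.43 for Hes1 and -0.30 ± 0.55 for Hey1 (SE, edgeR adjusted p = 0.999 for each). The SEs are large against the differences, so a p above the threshold does not show that the genotypes were alike. The 87 BECs of EC-Foxc-DKO replicate 1 outnumbered the 31, 29 and 24 of the other mice.

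In crypt cells, 0 of 8977 genes (0%) passed by edgeR, 204 had an unadjusted p under 0.05 and DESeq2 called 0. Notch1 differed by -0.45 ± 0.66, Notch2 by -0.24 ± 0.71, Dll1 by 0.03 ± 0.55, Jag1 by -0.38 ± 0.45 and Hes1 by -0.20 ± 0.33 (edgeR adjusted p = 1 for each). In bottom enterocytes, 0 of 9019 genes (0%) passed by edgeR, 154 had an unadjusted p under 0.05 and DESeq2 called 2. Dll1 differed by 0.49 ± 0.45, Dll4 by -0.66 ± 0.62, Jag1 by -0.81 ± 0.68 and Hes1 by -0.20 ± 0.49 (edgeR adjusted p = 0.999 for each). No member tested had groups that did not overlap in either type, against 27.9% and 30.8% of all genes tested. Below the filter, crypt Jag2 (0, 0, 2.23 and 2.89 CPM) and crypt Notch4 (0.62, 0, 1.78 and 1.73 CPM) did not overlap, at 0 to 15 UMIs per mouse. The share of such genes below the filter was not computed. The bottom enterocytes joined 2 clusters that the mice filled unequally: one led by Reg3a held 200, 31, 137 and 24 cells by mouse and one led by Saa1 held 29, 0, 15 and 182. The part of this in the genotype values was not tested.

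**Figure D4:**
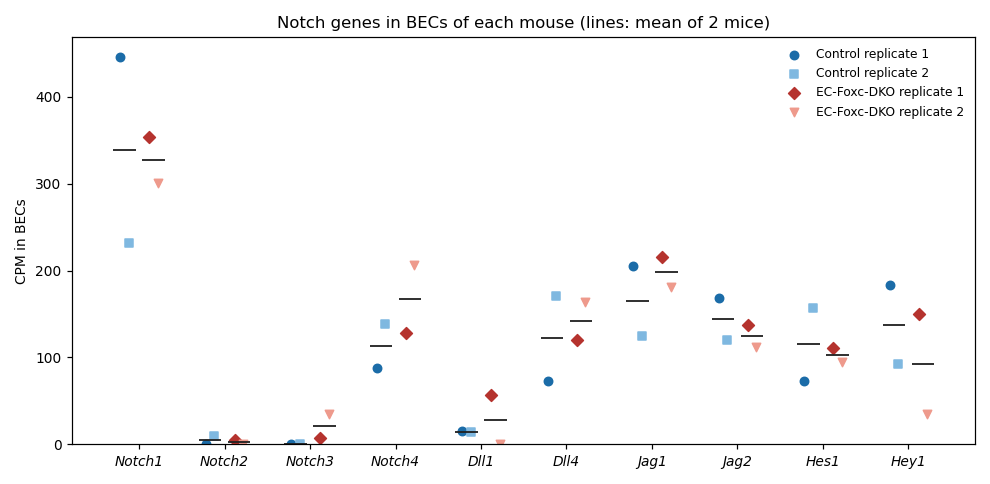
Level of each member in BECs (CPM, y axis) in the 2 Control and 2 EC-Foxc-DKO mice, 1 point per mouse and a line at the mean of 2 mice. The Control and EC-Foxc-DKO points overlap for every member tested, such as Notch1 (446 and 231 against 353 and 301 CPM).

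BECs divided into 4 subclusters when drawn again without the Notch pathway genes, and the levels of the members are described in each. Subcluster 1 (42 cells) had 7 of the 9 listed arterial genes at 2 times or more their mean in the other BECs, among them Gja4, Gja5, Efnb2 and Bmx. Subcluster 3 (31 cells) had 5 of 7 venous genes, Nr2f2, Ackr1, Selp, Lrg1 and Vcam1, but also the leukocyte genes Ptprc and Cd7 among its leading 10. Vcam1 was also found in subcluster 1. Subcluster 0 (62 cells) had 3 of 6 capillary genes, Car4, Plvap and Kdr. Subcluster 2 (36 cells) had 4 of 6, Rgcc, Gpihbp1, Cd36 and Car4. Each subcluster had 1 of 6 listed tip-like genes, in order Esm1, Kcne3, Angpt2 and Cxcr4.

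Over all mice, Jag1 was at 471 CPM in the arterial-like subcluster 1 against 215, 73.5 and 41.8 CPM in subclusters 0, 2 and 3. In mice with at least 5 such cells it was at 378, 517 and 433 CPM in subcluster 1, all above the 177 to 251 CPM of subcluster 0. Dll4 was at 273 CPM in subcluster 1 against 131, 127 and 16.7 CPM, and Jag2 at 248 against 126, 127 and 54.3 CPM. Their values by mouse overlapped between subclusters 0, 1 and 2. Hey1 was at 184, 228 and 118 CPM in subclusters 0, 1 and 2, and at 0 in the 31 cells of the venous-like subcluster 3, which allows up to 9.68% of cells. Notch4 was at 37.6 CPM and Notch1 at 138 CPM in subcluster 3, their lowest. Immune markers summed to 810 CPM in subcluster 3 against 10.5, 29.7 and 155 CPM in the others, and their part in its low levels was not tested. The values by mouse came from few cells, and EC-Foxc-DKO replicate 2 gave 1, 8, 7 and 8 cells to subclusters 0 to 3. Mural cells formed 1 group and were not divided.

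**Figure D5:**
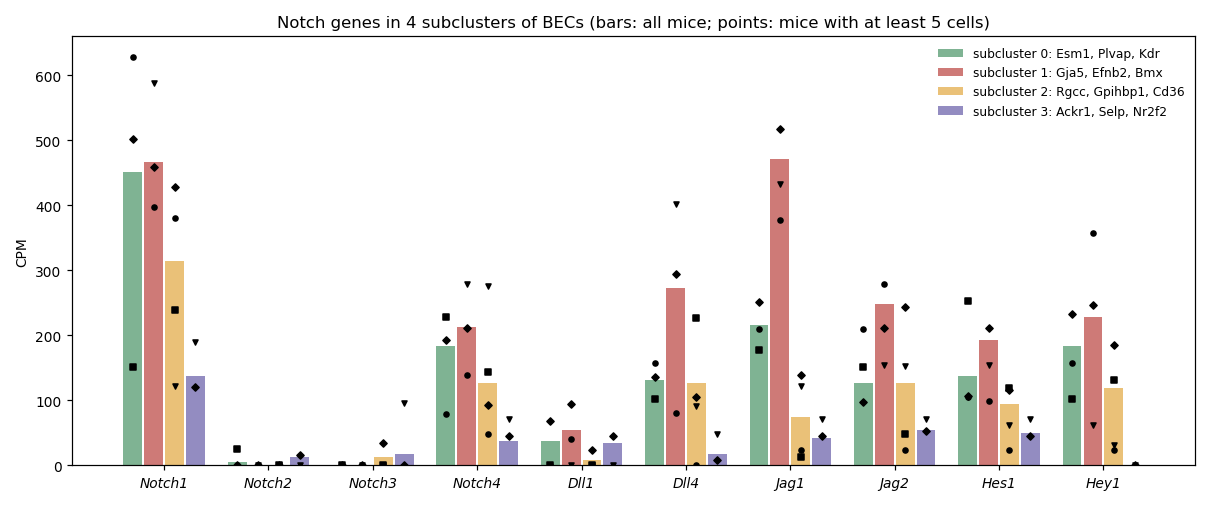
Level of the members in the 4 BEC subclusters (CPM, y axis); bars give all mice together and points the mice with at least 5 cells in the subcluster. Jag1 is highest in subcluster 1 (471 CPM) and Hey1 is at 0 in subcluster 3.

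The genes most like each member were taken by Pearson's r of log2(CPM + 10) over 59 sums of 20 cell types and 4 mice, as a description, since the sums share mice and libraries. Notch4 was closest to Nos3 (r = 0.978), the endothelial nitric oxide synthase, and to Adgrl4 (0.972) and Grrp1 (0.972). Notch3 was closest to Nrip2 and Ndufa4l2 (0.964 each) and to Pln (0.957), a regulator of the muscle calcium pump. Hey1 was closest to Stmn2 (0.939), Ptprb (0.928) and Sox18 (0.927), Jag2 to Bcam (0.954) and Jag1 to Tm4sf1 (0.923). Dll1 (0.768 to Cyb561) and Hes1 (0.794 to Cfl2) had no close partner. Among members, Hey1 and Notch4 were most alike (0.85), followed by Dll4 and Notch4 (0.808) and by Jag2 and Notch4 (0.792).

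A further 50 Notch pathway genes were counted. None of those tested passed for genotype, with 16 tested in BECs, 30 in crypt cells and 32 in bottom enterocytes. Between mural cells and BECs, 1 of 16 tested passed, beside the 30.9% called over all genes. This was the target Hey2, higher in mural cells by 4.07 ± 0.50 (edgeR adjusted p = 5.18e-05), at 148, 202 and 100.5 CPM. In BECs it was at 4.91 to 17.2 CPM over all mice, from few UMIs, so Hey2 reached the filter through mural cells. EC-Foxc-DKO replicate 2, which is within this BEC range, was not in the fit. The target Heyl had 0 UMIs in BECs and 82.2, 92.0 and 47.6 CPM in mural cells. Between crypt cells and BECs, 19 of 26 passed, 17 of them lower in crypt cells, beside the 66.9% called over all genes. Mfng, a Fringe that changes how receptors bind ligands, was at 58.5, 69.4, 76.1 and 85.9 CPM in BECs and at 0 to 2.12 CPM in crypt cells.

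In bottom enterocytes against crypt cells, 12 of 32 tested were higher and 8 lower, beside the 67.7% called over all genes. The repressor Hes2 was higher by 4.48 ± 0.54 and Numb, an inhibitor of receptor signaling, by 1.98 ± 0.22, at 53.7, 53.8, 56.4 and 46.7 CPM against 30.4, 8.47, 18.7 and 21.6 CPM. In goblet and Paneth cells against crypt cells, 4 of 27 tested passed, beside 31.5% over all genes. The feedback inhibitor Nrarp was lower, at 9.24, 0 and 2.16 CPM against 18.6, 33.4 and 20.4 CPM in the crypt cells of the same mice (-2.45 ± 0.76, edgeR adjusted p = 0.0388). Nrarp came from few UMIs in goblet and Paneth cells and reached the filter through crypt cells, so its call was fixed in part by that filter. The protease subunit Ncstn and the ubiquitin ligase Itch were higher by 1.02 ± 0.32 and 1.05 ± 0.32. Most of the other genes tested in that pair, 23 of 27, did not pass.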

How the data were processed

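Cells of the distal jejunum were profiled in 1 library for each of 4 mice, 2 per genotype, with groups and numbering as the labels give them. The authors deposited UMI counts as whole numbers without normalization, which they made from 10x Genomics 3′ libraries with Cell Ranger (version 4.0.0 per the file headers; the study's methods name another version) on the mouse genome mm10 with the Cre sequence added. The matrices of 32286 features were used; a deposited table of counts that joins the 4 libraries defined the 18407 genes analysed, and 3.08% of UMIs lay outside it. No column of per-sample values was left unused.

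Cells with at most 10% of UMIs on 13 mitochondrial genes were kept. Following the study's settings, counts were log-normalized to 10000 UMIs, and variable genes were chosen by a mean between 0.01 and 8 with a dispersion of 0.5 or more. From these, 15 principal components, 15 neighbors and Leiden clustering at resolution 0.5 (leidenalg 0.10.2) gave 24 clusters. The 60 Notch pathway genes were left out of the variable genes. A cluster was named from at least 3 markers at 2 times their mean elsewhere and in 10% of cells, a cluster holding both mural and fibroblast markers was divided once more, and 641 cells (11.4%) stayed unnamed. Doublets were kept. Scrublet's threshold (scanpy 1.11.5) marked 13 of the 5615 kept cells and had not worked, so the 292 cells with the highest scores (5.20%) were removed as an alternative.

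UMIs were summed per mouse and cell type, because cells of 1 mouse are not replicates, whereas the study tested single cells with MAST. Sums of at least 10 cells per mouse entered the genotype comparison and sums of at least 5 cells the cell type comparisons. They were fitted with edgeR 4.0.16 (filterByExpr, TMM, quasi-likelihood test, R 4.3.3), with Benjamini-Hochberg adjustment and a threshold of 0.05. DESeq2 1.42.0 was an alternative, beside other scaling, no filter, a mitochondrial limit of 20%, clustering with the Notch genes, no mouse covariate, a replicate block and leaving out each mouse. The edgeR test was first run on simulated counts with known changes, for genotype in BECs and for mural cells against BECs. Those counts had a common spread for all genes and no differences between mice, so they do not measure the precision reached here. With 2 mice per genotype the precision is set by the number of mice and by the median of 4037 to 19751 UMIs per kept cell. Shares carry exact 95% binomial intervals, and a share of 0 the limit of 3 counts. Ratios of summed UMIs carry exact 95% intervals for counting error, and replace a fitted difference where a type had 3 UMIs or fewer.

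The text names the 10 members and, of the other 50 pathway genes, those among the 4 with the largest log2 differences past the threshold in each comparison. Members and lists were chosen with earlier results of these data known. A further pathway gene that passed is not reported here.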

Additional observations from a re-analysis of the deposited data

How the results depend on the processing

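With 2 mice per genotype, counts of genes called moved with the settings. In BECs, where edgeR called 0, DESeq2 called 2, the fit with no filter 52 and leaving out 1 mouse 18 to 69. In crypt cells (0 called) no filter gave 91 and leaving out 1 mouse 1 to 47. In bottom enterocytes (0 called) DESeq2 gave 2, no filter 123 and leaving out 1 mouse 0 to 1551, the highest without EC-Foxc-DKO replicate 1. That fit leaves EC-Foxc-DKO replicate 2 alone, with 182 of its 206 bottom enterocytes in the Saa1-led cluster against 29 of 229 and 0 of 31 in the Control mice; the cause was not tested. Leaving out 1 mouse always leaves 1 mouse in its genotype, which is assumed to vary like the other genotype, so these counts are no measure of stability by themselves. The labels do not say whether same-numbered mice were handled together. Deviations of same-numbered mice correlated at -0.02 in BECs, -0.36 in crypt cells and -0.16 in bottom enterocytes. With 2 mice per genotype these values cannot show whether the mice were paired. The replicate block called 12, 0 and 0 genes and turned Dll1 in crypt cells to -0.032. The crossed pairing, chosen after seeing the data, called 0, 0 and 3.

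None of the 16 genotype differences of the members passed under any alternative, and 23 of 192 alternative values turned direction. Leaving out 1 mouse gave, in BECs, -0.36 to 0.51 for Notch1, -0.32 to 0.98 for Dll4, -0.32 to 0.078 for Jag2, -0.59 to 0.59 for Hes1 and -1.89 to 0.20 for Hey1. In crypt cells it gave -1.41 to 0.73 for Notch1, -1.09 to 0.52 for Notch2, -0.72 to 0.65 for Dll1 and -0.50 to 0.10 for Hes1, and in bottom enterocytes -0.087 to 1.43 for Dll1 and -0.78 to 0.35 for Hes1. A mitochondrial limit of 20% gave -0.11 for Notch1 and -0.14 for Jag1 in BECs and 0.018 for Dll4 in bottom enterocytes, and DESeq2 gave -0.074 for Dll1 in crypt cells.

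Between cell types, 266 of 295 alternative values kept direction and call. Hes1 in crypt cells against BECs, 0.01 as reported, became -0.037 with DESeq2's size factors, -0.038 with DESeq2, -0.080 without the mouse covariate, -0.15 with likely doublets removed and -0.11 to 0.16 with 1 mouse left out. With 1 mouse left out, Hes1 ranged from -0.15 to 1.23 in mural cells against BECs and from -1.29 to 0.20 in crypt against mural cells. In mural cells against BECs, DESeq2 called 4 members, leaving out 1 mouse 4 to 6, and all genes called were 681 with DESeq2 and 1650 with no filter. No filter gave 6658 genes in crypt cells against BECs and 7 members in crypt against mural cells, where leaving out 1 mouse gave 3 to 5 members and 2080 to 3466 genes. It gave 3 to 5 members in bottom enterocytes and 1325 to 3805 genes in goblet and Paneth cells, each against crypt cells. EC-Foxc-DKO replicate 2 had too few mural cells, and Control replicate 2 too few goblet and Paneth cells, to enter those fits.

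Shares of cells with a UMI depend on depth: after thinning to 1000 UMIs they were 30.9% for Notch1, 14.3% for Notch4, 14.4% for Dll4, 13.2% for Jag2 and 13.7% for Hey1 in BECs. They were 4.88% for Notch2, 50.9% for Notch3, 32.5% for Jag1 and 19.0% for Hes1 in mural cells and 3.18% for Dll1 in goblet and Paneth cells. Jag1 in mural cells had a mean of 283.6 CPM at a mitochondrial limit of 20%.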
